A study of Mus musculus with 8 samples.

Results

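The BCL2 family genes followed here were the 10 genes Bcl2, Bcl2l1, Mcl1, Bcl2l11, Bax, Bak1, Bid, Bbc3, Pmaip1 and Bmf, among 18004 genes tested. They were chosen by symbol; the rule uses no measured value, but earlier results of these data were known when it was set. On the arrays 12 non-control probes carry these names, 2 each for Mcl1 and Bcl2l1, and the probe with the highest mean intensity stands for its gene. All 10 genes passed the filter on dim probes, and their main probes were well above background in both channels of all 8 arrays.

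Cytoplasmic RNA of bone marrow derived macrophages from mice of C57BL/6 x B6:129 Ola background was hybridised to 8 dual-colour arrays. An array compared cells kept for 3 days with CSF-1, the growth factor that macrophage cultures depend on, with cells at day 0. Both genotypes carry ERT2 Cre, a Cre recombinase that tamoxifen activates: control cells have genotype ERT2 Cre, and flox cells have genotype ERT2 Cre Thoc5 (flox/flox), in which Cre can delete Thoc5, a gene of the mRNA export machinery. Each genotype was kept without or with tamoxifen (untreated and treated cells), which gave 4 groups of 2 arrays, 1 array from each of 2 biological experiments. Untreated day 0 RNA served on the 2 arrays of its genotype and experiment. Experiment 2 had the opposite dye labels and its own slide, so experiment, dye and slide cannot be told apart. The labels give neither the promoter that drives Cre nor the number of mice behind an RNA sample.

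BCL2 family proteins set the threshold for the mitochondrial pathway of apoptosis. The pro-survival proteins BCL2, BCL-XL (from Bcl2l1) and MCL1 hold in check the effectors BAX and BAK (from Bak1), which otherwise open pores in the outer mitochondrial membrane and release cytochrome c. The BH3-only proteins BIM (from Bcl2l11), PUMA (from Bbc3), NOXA (from Pmaip1), BMF and BID sense stress and neutralise the pro-survival proteins or activate the effectors. Macrophages and their precursors need CSF-1 to survive, and MCL1 is known as a short-lived protein.

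The probes of Mcl1, Bcl2l1 and Bcl2l11 are shown, because their RNA differed most with tamoxifen or because 2 probes of the gene disagreed. Positions are those of the mm9 array design, and the letters are the deposited probe sequences, 5′ to 3′ and in the sense of the RNA. The Mcl1 and brighter Bcl2l1 probes are given by their first 30 bases, the dimmer Bcl2l1 probe and the Bcl2l11 probe by all 60.
Mcl1, brighter probe (chr3:95466855-95466914, + strand): gctgcttggaaagatggctctcagcaaaat
Mcl1, dimmer probe (chr3:95465543-95465602, + strand): tgcagcttctctagttagaaatgtatttct
Bcl2l1, brighter probe (chr2:152606404-152606463, - strand): atagtttgtgtgaaggtgaaagtgcagttc
Bcl2l1, dimmer probe (chr2:152655185-152655244, - strand): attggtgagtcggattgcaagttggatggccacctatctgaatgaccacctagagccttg
Bcl2l11 (chr2:127972893-127983988, + strand): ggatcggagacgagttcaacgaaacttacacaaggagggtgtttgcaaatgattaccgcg
The Mcl1 probes start 1312 bases apart, at bases 3240 and 1928 of the same transcript. The Bcl2l1 probes start 48781 bases apart on the chromosome but at bases 2311 and 674 of 1 transcript, so they lie in different exons. The 60 bases of the Bcl2l11 probe span 11096 bases of the genome, so this probe reads across an exon junction.

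Values below are log2 ratios of day 3 over day 0 on each array, or log2 changes with the standard error of a limma fit over all genes (n = 2 arrays per group), with p adjusted over all genes by Benjamini-Hochberg and called under 0.05. Comparisons of tamoxifen or genotype are of these ratios, save where day 0, the day 3 channel or log2 intensity is named. The labels say that the experiments are biological but not how cultures or mice were divided among samples. The targeted gene Thoc5 had ratios of -3.04 and -3.02 in flox cells with tamoxifen, -0.74 and -0.77 in flox cells without it, and -0.15 to -0.40 in control cells, which agrees in direction with the labels. The arrays of a group correlated at 0.78 to 0.93 over the genes, lowest in control cells without tamoxifen; genes are no independent replicates. In a channel 51.2% to 57.9% of probes were well above background and 0 non-control spots were saturated. The small number of arrays, 2 a group, limits the precision. The fit removes the shift between experiments that all groups share. Errors and intervals for day 3 against day 0 therefore leave out that part of the spread between the 2 experiments. The macrophage markers Csf1r, Adgre1 and Cd68 were all measured. Genes of neutrophils and their precursors were present at day 0 and fell strongly: 14 or 15 of 15 measured were lower at day 3 in each group, with array medians of -2.91 to -3.29. All 6 megakaryocyte genes, 6 of 7 stem and progenitor genes and 7 or 8 of 8 division genes were also lower in each group. Of 13 macrophage markers 7 to 9 were higher. Lower were 1 and 0 in control cells without and with tamoxifen, and 2 and 4 in flox cells without and with it. Fewer cells of a type and less RNA per cell cannot be told apart in these bulk samples, and the part of these shifts in the members' day 3 values was not tested.

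The first comparison was day 3 against day 0 within each group. Bak1 fell in all 4 groups and Mcl1 fell in 3 of them, while Bax passed in 0. In control cells without tamoxifen 3 members fell (Mcl1, Bak1, Bbc3) and 0 rose, where limma called 57.3% of all genes, 23.3% higher and 34% lower. In control cells with tamoxifen 4 fell (Mcl1, Bak1, Bbc3, Pmaip1) and 1 rose (Bmf), against 57.6% of all genes, 23.9% higher and 33.7% lower. In flox cells without tamoxifen 5 fell (Mcl1, Bcl2l1, Bcl2, Bak1, Pmaip1) and 0 rose, against 57.2% of all genes, 23.9% higher and 33.3% lower. In flox cells with tamoxifen 4 fell (Bcl2, Bak1, Pmaip1, Bid) and 2 rose (Bcl2l11, Bmf), against 58.9% of all genes, 25.5% higher and 33.4% lower. With 3 to 6 of 10 members called, the share of the family was below or close to that of all genes. The members' median change was -0.14, -0.16, -0.18 and -0.19 in the same order, beside -0.06, -0.05, -0.05 and -0.05 for all genes. The 4 comparisons share day 0 RNA within a genotype, so their agreement is not independent.

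**Figure D1:**
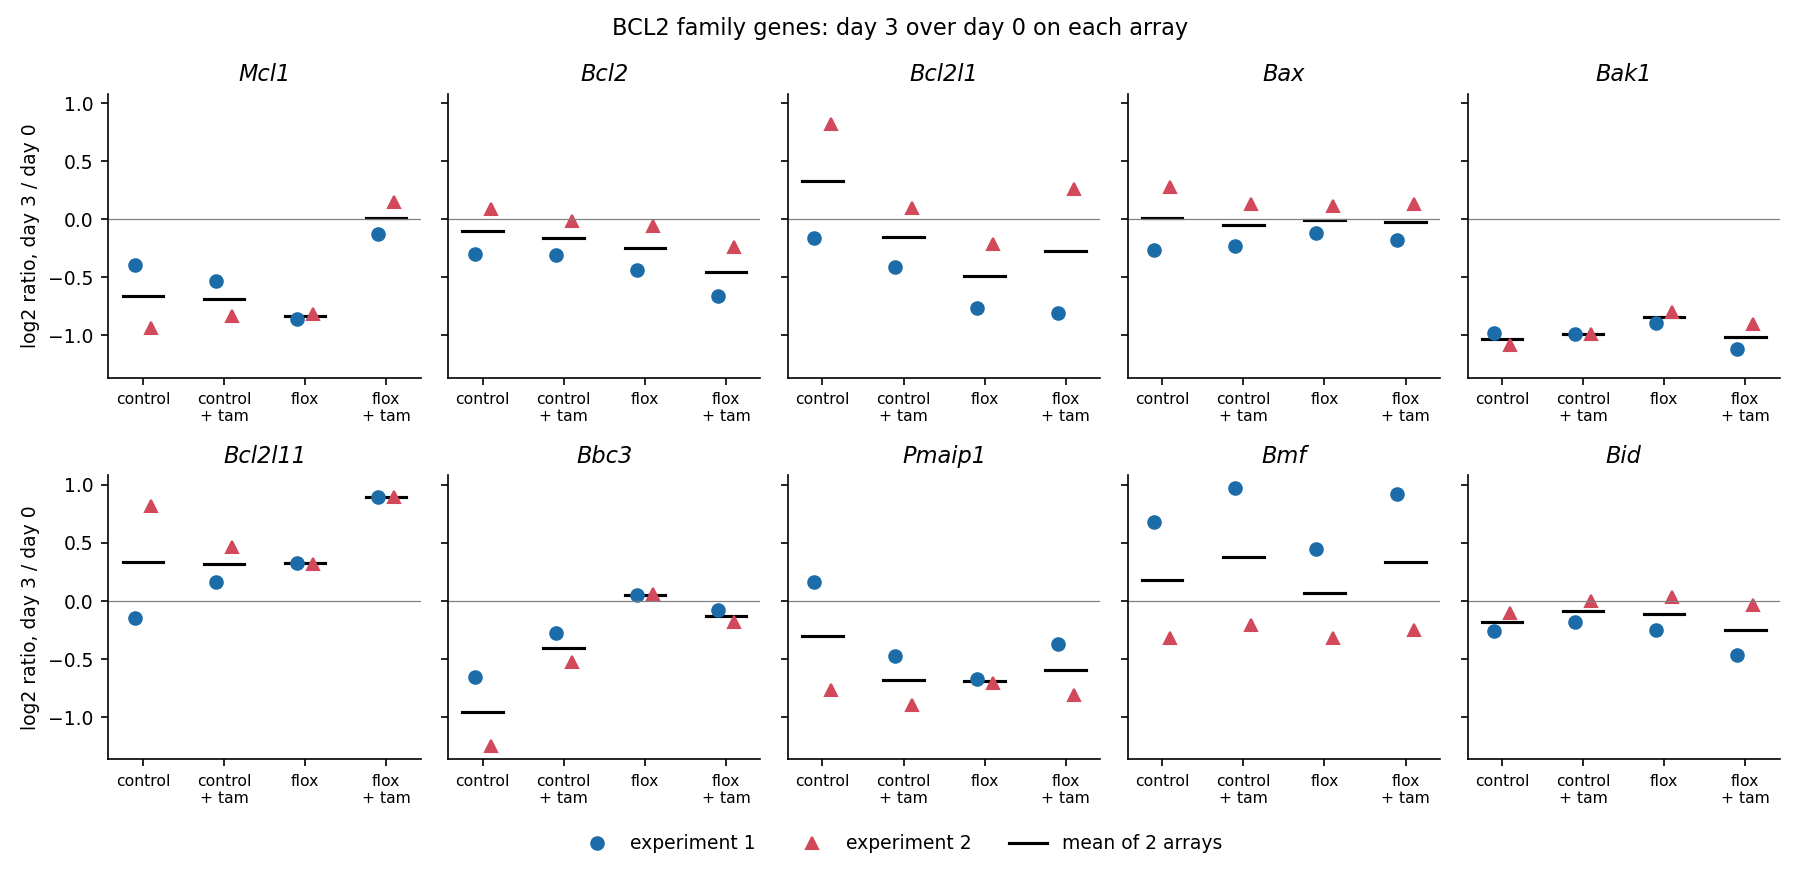
Log2 ratio of day 3 over day 0 (y axis) for the main probe of each of the 10 genes in the 4 groups (x axis); circles are experiment 1, triangles experiment 2 and bars the mean of 2 arrays. Bak1 lies between -0.79 and -1.12 on every array, the Mcl1 mean is near 0 in flox cells with tamoxifen and -0.66 to -0.84 elsewhere, and Bmf and Bax split by experiment.

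Among the pro-survival genes, Mcl1 fell under CSF-1 in every group but flox cells with tamoxifen. Control cells had ratios of -0.39 and -0.94 without and -0.53 and -0.84 with tamoxifen, and flox cells -0.86 and -0.82 without and -0.13 and 0.15 with it. The 2 arrays of flox cells with tamoxifen lay above the other 6, without overlap. The mean change was -0.66 ± 0.14 (limma adjusted p = 0.00734), -0.69 ± 0.14 (limma adjusted p = 0.00631), -0.84 ± 0.14 (limma adjusted p = 0.0028) and 0.01 ± 0.14 (limma adjusted p = 0.957) in that order. The first fall missed the threshold without the experiment 2 array of its group (-0.39, limma adjusted p = 0.111), the second without its experiment 1 or 2 array (limma adjusted p = 0.0512 and 0.118), and the third without its experiment 1 array (limma adjusted p = 0.0549).

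The day 3 channel showed the same order at its upper end. Its log2 intensity at day 3 was 16.08 and 16.09 in flox cells with tamoxifen, 15.38 and 15.21 in flox cells without it, 15.66 and 15.44 in untreated control cells, and 15.51 and 15.53 in treated control cells. Flox cells with tamoxifen thus stood highest, the control groups overlapped each other, and flox cells without tamoxifen were lowest and below every control array. At day 0 the log2 intensity was 16.05 and 16.37 in control cells and 16.22 and 15.98 in flox cells, which overlap.

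Mcl1 was the 1 member that passed the test for tamoxifen in flox cells. Its ratio was 1.80-fold higher with tamoxifen (0.85 ± 0.20, 95% interval 0.37 to 1.33, limma adjusted p = 0.0498), and higher in both experiments, by 0.73 and 0.96. This value lies just inside the threshold, and the limma adjusted p ranged from 0.00263 to 0.255 over its 19 alternatives, of which 10 passed. The call was lost without either array of treated control cells (limma adjusted p = 0.0973 for each), without the experiment 1 or 2 array of flox cells without tamoxifen (0.73 and 0.96, limma adjusted p = 0.255 and 0.15), and without the experiment 1 or 2 array of flox cells with tamoxifen (1.12 and 0.57, limma adjusted p = 0.0608 and 0.248). It was also lost with no replicate block, that is, with no term for the experiment (limma adjusted p = 0.0949), and with Agilent's processed signals (0.82, limma adjusted p = 0.0993).

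The dimmer Mcl1 probe gave a like change with a smaller error. Its ratios were 0.13 and 0.30 in flox cells with tamoxifen and between -0.39 and -0.68 on the other 6 arrays. In flox cells tamoxifen moved it by 0.87 ± 0.13 (limma adjusted p = 0.0135 over all probes, where the brighter probe had 0.0511). In control cells tamoxifen moved Mcl1 by -0.02 ± 0.20 with the brighter probe and by 0.07 ± 0.13 with the dimmer. The difference between the genotypes' tamoxifen effects was 0.87 ± 0.28 (95% interval 0.19 to 1.54) and did not pass (limma adjusted p = 0.21, with a range of 0.0447 to 0.557 over its 18 alternatives). With the dimmer probe it was 0.80 ± 0.18 (limma adjusted p = 0.108 over all probes). The effect in flox cells was therefore not shown to differ from that in control cells.

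**Figure D2:**
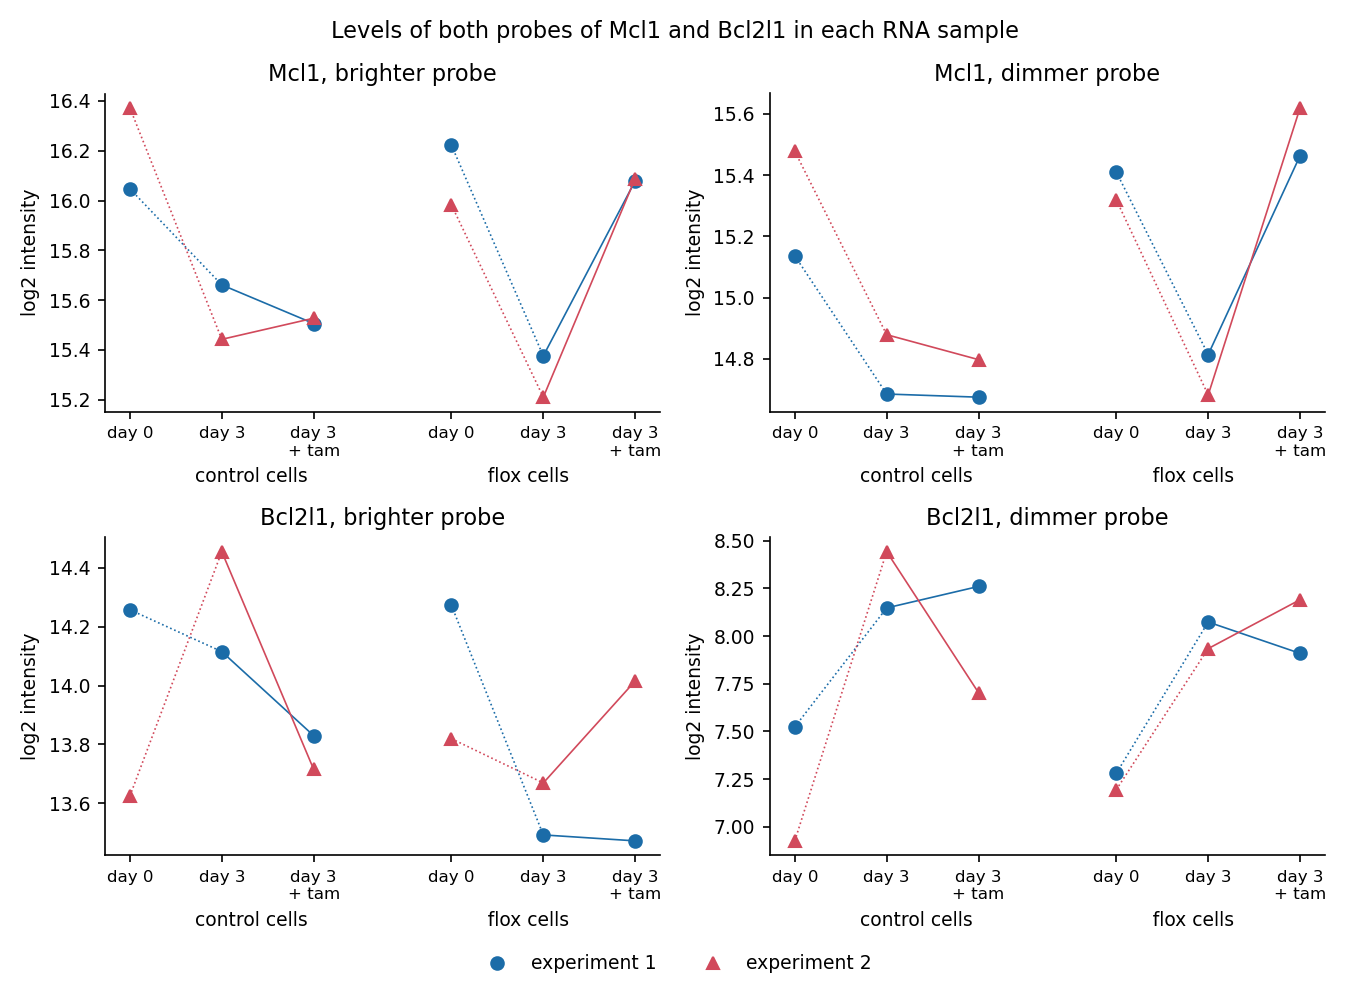
Log2 intensity (y axis) of both probes of Mcl1 and Bcl2l1 in each RNA sample; circles are experiment 1, triangles experiment 2, dotted lines join day 0 to day 3 without tamoxifen, and solid lines join day 3 without and with tamoxifen. For both Mcl1 probes the day 3 level of flox cells was higher with tamoxifen in each experiment, whereas the brighter Bcl2l1 probe went up or down from day 0 by array and the dimmer one went up in all; each panel has its own y range.

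The probes of Bcl2l1 differed, with means of opposite sign in 3 of the 4 groups. The brighter probe had ratios of -0.16 and 0.82 in untreated and -0.41 and 0.10 in treated control cells, and of -0.77 and -0.22 in untreated and -0.81 and 0.26 in treated flox cells. Experiment 2 stood above experiment 1 in every group, and the sign differed between experiments in 3 of the 4 groups. The mean was 0.33 ± 0.12 in untreated control cells (limma adjusted p = 0.0513, which passed in 5 of 17 alternatives), -0.16 ± 0.12 in treated control cells and -0.27 ± 0.12 in treated flox cells. It fell in flox cells without tamoxifen (-0.49 ± 0.12, limma adjusted p = 0.0123), but not without the experiment 2 array of that group (-0.34, limma adjusted p = 0.193) or with no replicate block (limma adjusted p = 0.241). The dimmer probe, which reads another exon, rose in all 4 groups, by 1.03 ± 0.13, 0.80 ± 0.13, 0.76 ± 0.13 and 0.82 ± 0.13 (limma adjusted p of 0.0025 or less over all probes), with ratios between 0.65 and 1.41 on the 8 arrays. This probe is far dimmer, with a mean log2 intensity of 7.67 against 13.92 for the brighter probe, and of 6.82 to 7.55 at day 0. It was not well above background in the day 0 channel of 1 array of control cells with tamoxifen. The mean of both probes, given next, weighs them equally. With the mean of both probes, control cells with tamoxifen stood at 0.32 (limma adjusted p = 0.0477), and flox cells without it at 0.13 (limma adjusted p = 0.346), each of opposite sign to the brighter probe, for which limma adjusted p ranged from 0.0477 to 0.919 and from 0.01 to 0.346 over the alternatives. Flox cells with tamoxifen also changed sign with that mean, to 0.27, with a call on neither side (limma adjusted p = 0.0771). No direction for the gene as a whole can be given from these probes.

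Bcl2, the gene that gave the family its name, had a log2 intensity of 7.91 to 8.18 at day 3. Its ratios were -0.44 and -0.06 in flox cells without tamoxifen and -0.66 and -0.24 with it, against -0.30 and 0.09 in untreated and -0.31 and -0.01 in treated control cells. Every experiment 2 ratio was above every experiment 1 ratio, so the arrays of the groups overlap. It fell in flox cells with tamoxifen (-0.45 ± 0.07, limma adjusted p = 0.00163) and without (-0.25 ± 0.07, limma adjusted p = 0.0198), and stood at -0.10 ± 0.07 and -0.16 ± 0.07 in control cells. At day 0 its log2 intensity was 8.44 and 7.95 in control cells and 8.63 and 8.20 in flox cells, higher in flox cells in both experiments. The mean day 3 intensities lay close together, at 8.10 and 8.02 in control cells without and with tamoxifen and 8.15 and 7.98 in flox cells. The fall without tamoxifen was lost without either array of that group (limma adjusted p = 0.174 and 0.159), with Agilent's processed signals (0.0754) and with median centring (0.127), and with no replicate block both were lost (limma adjusted p = 0.24 without and 0.0506 with tamoxifen).

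Of the effectors, Bak1 fell in all groups and Bax passed in none. The ratio of Bak1 was -0.98 and -1.09 in untreated control cells, -0.99 on both arrays of treated control cells, -0.89 and -0.79 in untreated flox cells and -1.12 and -0.90 in treated flox cells. All 8 arrays were low. The arrays of untreated flox cells lay above all others, though at the closest only by -0.89 against -0.90, and the other groups overlap. The falls were 2.05-fold (-1.04 ± 0.08, limma adjusted p = 0.000155), 1.98-fold (-0.99 ± 0.08, limma adjusted p = 0.000184), 1.80-fold (-0.84 ± 0.08, limma adjusted p = 0.00031) and 2.02-fold (-1.01 ± 0.08, limma adjusted p = 0.000148), and each passed under all 17 of its alternatives. For Bax the ratio was between -0.12 and -0.27 on the 4 arrays of experiment 1 and between 0.11 and 0.28 on the 4 of experiment 2. Its group means were 0.01, -0.05, -0.00 and -0.02 (limma adjusted p from 0.644 to 0.975), with 95% intervals that together span -0.24 to 0.20. These intervals leave out the shift between experiments and are narrower than the span of the ratios themselves.

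Among the BH3-only genes, Bcl2l11 was highest in flox cells with tamoxifen. Its ratios there were 0.89 and 0.90, against 0.33 and 0.32 in untreated flox cells, 0.17 and 0.47 in treated and -0.14 and 0.82 in untreated control cells. The 2 arrays of flox cells with tamoxifen lay above the other 6, though close to the highest control array, and the untreated control arrays lay far apart. It rose 1.86-fold in flox cells with tamoxifen (0.90 ± 0.17, limma adjusted p = 0.00416), a call lost without the experiment 1 array of that group (0.69, limma adjusted p = 0.0838). In the other groups the change was 0.34, 0.32 and 0.32, each ± 0.17 (limma adjusted p of 0.129 to 0.149).

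The tamoxifen effect on Bcl2l11 in flox cells was 0.57 ± 0.24 (95% interval -0.00 to 1.15) and did not pass (limma adjusted p = 0.202). It was 0.57 and 0.58 in the experiments. Without either array of untreated control cells, limma adjusted p was 0.0332, and with the 4 flox arrays alone it was 0.00599; over all 19 alternatives it ranged from 0.00599 to 0.609. In control cells the effect was -0.02 ± 0.24, with 0.31 and -0.35 in the experiments, and the difference of the effects was 0.59 ± 0.34 (limma adjusted p = 0.483).

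Bbc3, a gene that p53 and other stress factors induce, fell under CSF-1 in both control groups and passed in neither flox group. Its ratios were -0.66 and -1.25 in untreated and -0.28 and -0.53 in treated control cells, and 0.05 and 0.06 in untreated and -0.08 and -0.18 in treated flox cells. Every flox array stood above every control array. The change was -0.95 ± 0.11 (1.94-fold lower, limma adjusted p = 0.000666) and -0.40 ± 0.11 (limma adjusted p = 0.0205) in control cells, and 0.05 ± 0.11 and -0.13 ± 0.11 in flox cells (limma adjusted p = 0.702 and 0.347). The fall in treated control cells missed the threshold without its experiment 1 or 2 array (limma adjusted p = 0.151 and 0.175) and with no replicate block (0.0559).

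Bbc3 was also the 1 member called between genotypes without tamoxifen. The ratio was 2.01-fold higher in flox than in control cells (1.01 ± 0.16, 95% interval 0.63 to 1.39, limma adjusted p = 0.039). At day 3 its log2 intensity was 12.15 and 12.35 in flox cells and 11.51 and 11.11 in control cells, while at day 0 the genotypes differed by -0.06 ± 0.13 (limma adjusted p = 1). The call passed in 8 of 19 alternatives (limma adjusted p from 0.000894 to 0.241) and was lost without the experiment 2 array of untreated control cells (0.77, limma adjusted p = 0.0719), without the experiment 1 or 2 array of flox cells without tamoxifen (1.17 and 0.85, limma adjusted p = 0.241 and 0.128), without either array of control cells with tamoxifen (0.0859) or of flox cells with it (0.0671), with no replicate block (0.122), with Agilent's processed signals (0.0807) and with the compared arrays alone (0.216). With tamoxifen the genotypes differed by 0.27 ± 0.16 (limma adjusted p = 0.302). In the same comparison without tamoxifen, 4 of 8 division genes had a higher ratio in flox cells and 0 a lower one. The ratio was lower for 2 of 15 neutrophil, 1 of 6 megakaryocyte and 2 of 7 stem and progenitor genes, and higher for 0. Medians of these differences were -0.17, -0.79 and -0.69. At day 0 the same lists stood higher in flox cells, with medians of 0.57, 0.67 and 0.72. Their day 3 array medians were also higher in untreated flox than in untreated control cells in each experiment. For neutrophil genes these were 11.17 and 11.08 against 9.86 and 10.30. Lower ratios of these lists thus did not mean lower day 3 levels. The part of these genes in the Bbc3 value was not tested.

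The other BH3-only genes changed less between groups. Pmaip1 had ratios of 0.17 and -0.77 in untreated and -0.47 and -0.89 in treated control cells, and of -0.67 and -0.71 in untreated and -0.37 and -0.81 in treated flox cells. The groups overlap, and 1 ratio, in untreated control cells, was positive. Pmaip1 fell in the last 3 groups, by 0.68 ± 0.14, 0.69 ± 0.14 and 0.59 ± 0.14 on the log2 scale (limma adjusted p = 0.00675, 0.00654 and 0.0114), and in control cells without tamoxifen the change of -0.30 ± 0.14 did not pass (limma adjusted p = 0.112, and 0.0165 without its experiment 1 array). Those falls missed the threshold without either array of treated control cells (limma adjusted p = 0.0922 and 0.0819), without the experiment 1 array of flox cells without it (-0.41, limma adjusted p = 0.129), and without either array of flox cells with it (limma adjusted p = 0.111 and 0.0853) or, for that last group, with no replicate block (0.0627).

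Bmf, whose protein binds the cytoskeleton until it is released by stress, split by experiment. Its ratios were between 0.45 and 0.97 on the 4 arrays of experiment 1 and between -0.21 and -0.32 on the 4 of experiment 2. It rose in treated control cells (0.38 ± 0.09, limma adjusted p = 0.0126) and treated flox cells (0.34 ± 0.09, limma adjusted p = 0.0192), where the fit removes the shift between experiments. With no replicate block both were lost (limma adjusted p = 0.461 and 0.513), with median centring as well (0.104 and 0.244), and without the experiment 1 or 2 array of the group limma adjusted p was 0.198 and 0.0613 in control cells and 0.259 and 0.0619 in flox cells. No group had ratios of the same sign in both experiments.

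Bid, which caspase-8 cleaves to link death receptors to mitochondria, had ratios between -0.47 and 0.03 on the 8 arrays. It passed in flox cells with tamoxifen (-0.25 ± 0.08, limma adjusted p = 0.0301), with ratios of -0.47 and -0.04. That call was lost without any 1 of the arrays of treated control cells (limma adjusted p = 0.0534), flox cells without it (0.0541) or flox cells with it (-0.14 and -0.37, limma adjusted p = 0.416 and 0.0569), and with median centring, Agilent's processed signals and no replicate block (limma adjusted p = 0.11, 0.0576 and 0.155).

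The tamoxifen comparisons give the family as a whole. In flox cells 1 of 10 members passed, upward (Mcl1), where limma called 9.02% of all genes, 4.85% of them upward. The count of members lies close to that background. In control cells 0 of 10 passed, where limma called 0% of all genes (997 of 18000 at an unadjusted p under 0.05, among them Bbc3 and Bcl2l1). Bbc3 stood at 0.55 ± 0.16 there (limma adjusted p = 0.686), with 0.38 and 0.72 in the experiments, and Bcl2l1 at -0.49 ± 0.17 (limma adjusted p = 0.804), with -0.25 and -0.72. The difference of the effects passed for 0 of 10 members, against 1.14% of all genes; 3 members, Mcl1, Bcl2l1 and Bbc3, had an unadjusted p under 0.05, as did 15.4% of all genes. For Bbc3 it was -0.74 ± 0.22 (limma adjusted p = 0.185) and for Bcl2l1 0.70 ± 0.24 (limma adjusted p = 0.227). The members' median was 0.04 for tamoxifen in flox cells, -0.02 in control cells and 0.05 for the difference, beside -0.01, 0.01 and -0.01 for all genes.

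**Figure D3:**
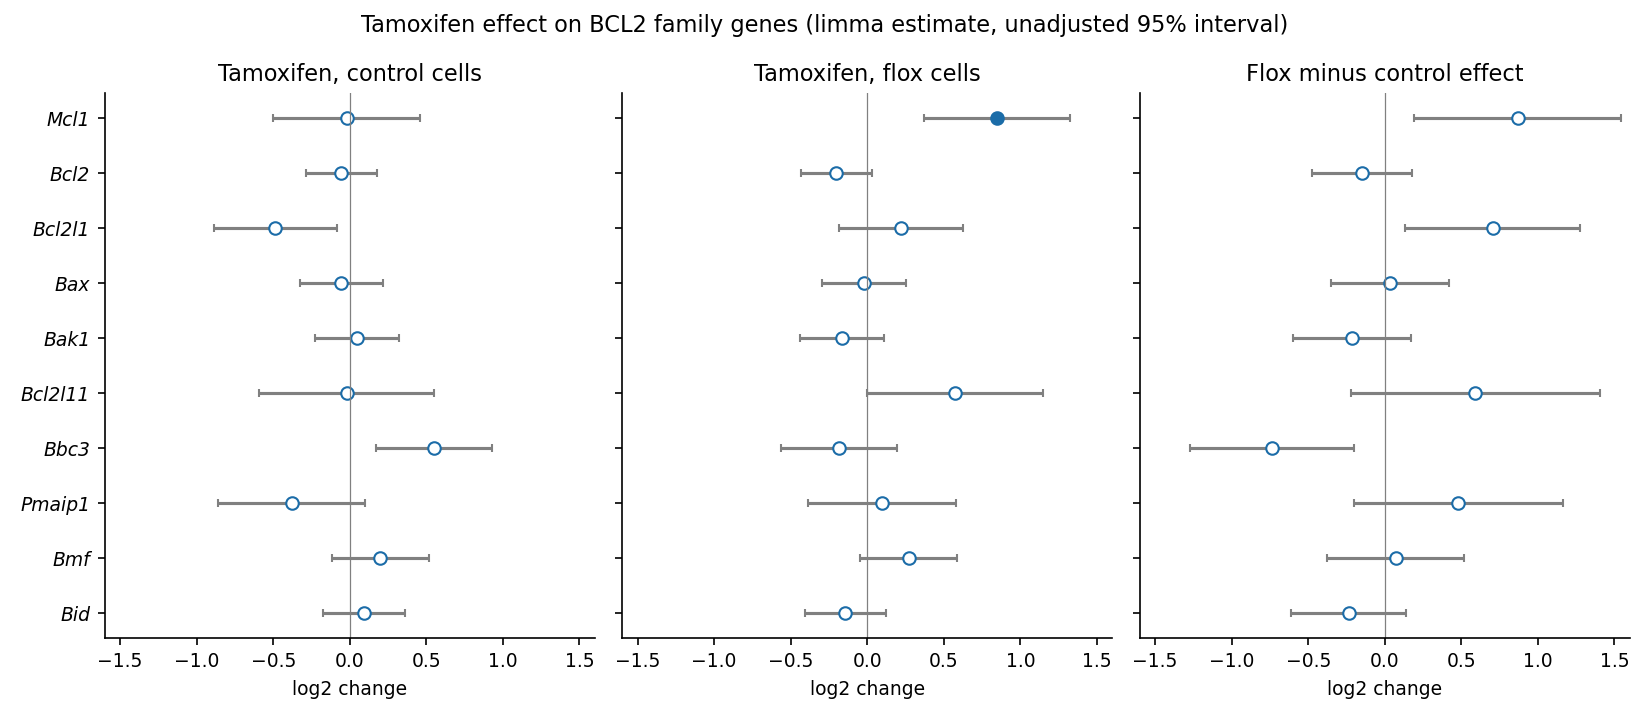
Log2 change with tamoxifen (x axis) in control cells, in flox cells and as the difference of both, for the 10 genes (y axis); points are limma estimates from 8 arrays, lines their unadjusted 95% intervals, and filled points have an adjusted p under 0.05. The 1 filled point is Mcl1 in flox cells, at 0.85.

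The effectors and Bid moved little with tamoxifen in flox cells. Bak1 stood at -0.17 ± 0.11, Bax at -0.02 ± 0.11 and Bid at -0.14 ± 0.11. The 95% intervals were -0.44 to 0.11, -0.29 to 0.25 and -0.41 to 0.12, so a change of 2-fold lies outside each. Bcl2 stood at -0.20 ± 0.10 (95% interval -0.43 to 0.03), lower in both experiments, Bmf at 0.27 ± 0.13 (-0.04 to 0.59), Pmaip1 at 0.10 ± 0.20 (-0.38 to 0.58) and Bbc3 at -0.18 ± 0.16 (-0.56 to 0.19).

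Between genotypes, 1 of 10 members passed without tamoxifen, upward (Bbc3), against 2.87% of all genes and 1.44% upward. Bcl2l1 was lower there by its brighter probe (-0.82 ± 0.17, limma adjusted p = 0.0575), while the dimmer probe gave -0.27 ± 0.18. With tamoxifen 0 of 10 passed, against 11.3% of all genes; 3 members had an unadjusted p under 0.05, namely Mcl1, Bcl2 and Bcl2l11, as did 29.4% of all genes. Mcl1 stood at 0.70 ± 0.20 (limma adjusted p = 0.0723, with a range of 0.0181 to 0.303 over its 19 alternatives), Bcl2 at -0.29 ± 0.10 (limma adjusted p = 0.102) and Bcl2l11 at 0.58 ± 0.24 (limma adjusted p = 0.167). The Bcl2 value ranged from -0.34 to -0.04 over its 19 alternatives. Mcl1 passed here without either array of untreated control cells (limma adjusted p = 0.0335), as did Bcl2l11 (limma adjusted p = 0.028). The dimmer Mcl1 probe passed, at 0.73 ± 0.13 (limma adjusted p = 0.0222 over all probes).

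At day 0, before any treatment, 0 of 10 members passed between flox and control cells, against 0.339% of all genes in a limma fit of 4 RNA samples (1505 of 18002 genes and 0 members at an unadjusted p under 0.05). The members' differences ranged from -0.19 ± 0.12 for Bmf to 0.22 ± 0.12 for Bcl2. The 2 arrays that carried the same day 0 RNA gave member log2 intensities that differed by a median of 0.04 and at most 0.19. Of 61 marker genes limma called 5 at day 0, or 8.2%. These were 4 of 15 neutrophil genes and 1 of 7 stem and progenitor genes, all higher in flox cells. The neutrophil precursor genes Mpo, Camp, Ctsg and Prtn3 were higher by 1.40 to 1.93. List medians ran from 0.02 for macrophage markers to 0.81 for the 3 erythroid genes, with 0.57 for neutrophil, 0.67 for megakaryocyte and 0.72 for stem and progenitor genes. The part of these markers in the members' day 0 values was not tested.

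The rest of the BCL2 family was followed as a list, of which 10 of 15 genes could be tested. With tamoxifen in flox cells 1 rose, 1 fell and 8 did not pass (median -0.04), where limma called 9.02% of all genes. Bnip3l, which encodes the mitophagy receptor NIX, rose by 0.72 ± 0.11 (limma adjusted p = 0.0136), and Bcl2a1d, a pro-survival gene of the A1 group, fell by 1.33 ± 0.24 on the log2 scale (limma adjusted p = 0.0228). Near-identical copies of Bcl2a1d may share its probe's signal, so this value cannot be assigned to 1 copy. Bcl2a1d rose under CSF-1 in the other groups, by 1.36, 1.02 and 1.43, and stood at 0.10 in flox cells with tamoxifen; Bnip3l fell in them, by 0.28, 0.29 and 0.33 on the log2 scale, and rose by 0.40 in flox cells with tamoxifen. In neither did the difference of the tamoxifen effects pass (0.73 ± 0.15, limma adjusted p = 0.0879 for Bnip3l, and -0.99 ± 0.33, limma adjusted p = 0.226 for Bcl2a1d). Bcl2l14 at -0.41 ± 0.16 and Bok at 0.44 ± 0.21 did not pass. Between genotypes without tamoxifen 2 of 10 were higher in flox cells and 0 lower, where limma called 2.87% of all genes. These were Bik (0.80 ± 0.13, limma adjusted p = 0.039) and Bnip3 (0.60 ± 0.11, limma adjusted p = 0.0482), both named here after their values were seen. Under CSF-1, 2, 2, 1 and 2 of these 10 genes rose and 4, 5, 4 and 3 fell in control cells without and with tamoxifen and flox cells without and with it. That is 6, 7, 5 and 5 of 10 called, where limma called 57.3%, 57.6%, 57.2% and 58.9% of all genes.

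Downstream of the mitochondria, the list of apoptosome, caspase and mitochondrial factor genes held 0 of 17 that passed for tamoxifen in either genotype. Of all genes limma called 0% in control and 9.02% in flox cells. With tamoxifen 1 of 17 passed between genotypes, against 11.3% of all genes. This was Casp2, which was higher in flox cells (0.86 ± 0.15, limma adjusted p = 0.0187). In that comparison 3 of 10 genes in the rest of the BCL2 family were higher and 0 lower. Of the lists that follow, 2 of 9 death receptor genes and 1 of 24 regulators of the family were lower and 0 higher. Of the inhibitor of apoptosis genes 0 of 9 passed. Under CSF-1, 3 rose and 10 fell in control cells without tamoxifen, 4 and 11 with it, 4 and 7 in flox cells without it, and 5 and 5 with it. That is 13, 15, 11 and 10 of 17 called, where limma called 57.3%, 57.6%, 57.2% and 58.9% of all genes. Apaf1, the scaffold of the apoptosome, fell in every group, by 1.34, 1.10, 1.03 and 0.70 on the log2 scale; it is named after its values were seen. With tamoxifen in flox cells limma called 0 of 17 (2 at an unadjusted p under 0.05); among those with the smallest p were Cycs, which encodes cytochrome c, at -0.72 ± 0.21 (limma adjusted p = 0.0912), Htra2 at 0.26 ± 0.11 and Casp2 at 0.34 ± 0.15.

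The inhibitor of apoptosis (IAP) genes, 9 of 9 tested, held 1 that rose in each group, Birc3 (0.93, 1.03, 1.12 and 1.04), and 6, 7, 6 and 6 that fell. That is 7, 8, 7 and 7 of 9 called, where limma called 57.3%, 57.6%, 57.2% and 58.9% of all genes. Of all genes 33.3% to 34% were lower. Birc3 is named after its values were seen. With tamoxifen in flox cells limma called 0 of 9 (1 at an unadjusted p under 0.05), against 9.02% of all genes. The smallest p belonged to Naip6 (0.33 ± 0.14), Naip1 (-0.28 ± 0.12), Birc5 (-0.29 ± 0.15) and Naip2 (0.18 ± 0.11). The Naip genes are near copies of each other. Without tamoxifen Birc5, which also acts in mitosis, was higher in flox than in control cells (1.10 ± 0.15, limma adjusted p = 0.037). Of the death receptor genes, 9 of 10 were tested and 1 passed with tamoxifen in flox cells, against 9.02% of all genes. This was Cflar, which encodes the caspase-8 inhibitor FLIP and fell by 0.63 ± 0.13 on the log2 scale (limma adjusted p = 0.0381). Cflar had risen under CSF-1 in the other groups, by 0.40, 0.37 and 0.39, and stood at -0.25 in flox cells with tamoxifen. Of the 9 death receptor genes, 2, 2, 1 and 0 rose under CSF-1 and 3, 3, 1 and 2 fell, with the groups in the order used above. That is 5, 5, 2 and 2 of 9 called, where limma called 57.3%, 57.6%, 57.2% and 58.9% of all genes. The difference of the tamoxifen effects on Cflar did not pass (-0.61 ± 0.19, limma adjusted p = 0.197), and Ripk1 (0.34 ± 0.10), Casp8 (-0.25 ± 0.13) and Tnfsf10 (-0.45 ± 0.29) did not pass in flox cells.

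Genes that regulate the family at the RNA or protein level, 24 of 24 tested, held 0 that limma called with tamoxifen in flox cells, against 9.02% of all genes. Their median was 0.03, and 4 had an unadjusted p under 0.05, as did 24.9% of all genes. Stat3 at -0.37 ± 0.10, Pim1 at 0.36 ± 0.11, E2f1 at 0.28 ± 0.10 and Mapk8 at -0.33 ± 0.13 had the smallest p. Stat3, a transcription factor downstream of cytokine receptors, was lower in flox than in control cells without tamoxifen (-0.71 ± 0.10, limma adjusted p = 0.0376). Under CSF-1, 3, 2, 4 and 3 of the 24 rose and 13, 13, 17 and 15 fell, with the groups in the order used above. That is 16, 15, 21 and 18 of 24 called, where limma called 57.3%, 57.6%, 57.2% and 58.9% of all genes. Of all genes 23.3%, 23.9%, 23.9% and 25.5% were higher and 34%, 33.7%, 33.3% and 33.4% lower.

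Of 61 marker genes tested, limma called 11 with tamoxifen in flox cells, or 18% against 9.02% of all genes. Of 15 neutrophil genes 2 rose (Mmp8 by 0.72 ± 0.12 and Mmp9 by 0.76 ± 0.17), and the array medians of the day 3 log2 intensity were 11.17 and 11.08 without and 11.31 and 11.01 with tamoxifen, against 9.86 to 10.30 in control cells. Of 13 macrophage markers Cd68 rose (0.99 ± 0.22) and Itgam (-0.86 ± 0.15) and Fcgr1 (-0.86 ± 0.11) fell, and their day 3 medians were 16.41 and 16.29 without and 16.54 and 16.65 with tamoxifen. Of 8 division genes Ccnb1 (-0.75 ± 0.14) and Plk1 (-0.40 ± 0.09) fell, and both also passed for the difference of the tamoxifen effects (-1.37 ± 0.20 and -0.86 ± 0.13, limma adjusted p = 0.043 and 0.0468). Of 6 B lineage genes Cd79b fell (-1.09 ± 0.11), of 6 megakaryocyte genes Gp9 (-0.81 ± 0.19) and Ppbp (-1.08 ± 0.25), of 7 stem and progenitor genes Cd34 (-0.70 ± 0.16), and of 3 T and NK and 3 erythroid genes tested limma called 0 (2 and 0 at an unadjusted p under 0.05). The part of these genes in the Mcl1 and Bcl2l11 values was not tested.

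The genes whose ratios were most like those of a member across the 8 arrays were Ranbp10, Mgll and Dnajb6 for Mcl1 (Pearson r of 0.985, 0.982 and 0.979), Nus1, Serpinb1b and Colec12 for Bcl2l11 (0.99, 0.987 and 0.984) and Fitm2 and the unnamed transcripts A830049F12Rik and 6720427H10Rik for Bcl2 (0.984, 0.989 and 0.985). The 8 points share day 0 RNA in pairs and are drawn from all genes tested, so these values only describe likeness.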

How the data were processed

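Scans were extracted by the authors with Agilent Feature Extraction 10.7.3.1, per the submitters' processing notes. The deposited scanner files give the intensity of each spot and its background, before and after processing, a log10 ratio (red over green) and flags. The deposited series values are this log10 ratio, turned to day 3 over day 0. Per the file headers, positions are on mm9.

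Here spot means were corrected with normexp (offset 50), and log2 ratios computed from the deposited intensity were loess-normalized within arrays (limma 3.58.1, R 4.3.3, data.table version 1.17.8, statmod 1.5.0). Outlier spots were left out. Probes well above background in both arrays of 1 or more groups were kept (22407 of 39429), and 85 genes have a missing value. Genes were named through RefSeq for 26412 probes and otherwise as deposited. The limma model held 4 group means and the experiment, with 3 residual and 3.47 prior degrees of freedom; tests are two-sided. Levels are Aquantile-normalized channels; the day 0 fit averaged the 2 arrays of an RNA. The labels number the biological experiments, and this number was used to pair samples. Same-numbered arrays deviated together (0.31 to 0.73). They share dye and slide, and those of a genotype share day 0 RNA, so the source of this likeness was not tested. The method was tested on simulated data with independent errors. That test does not cover the day 0 RNA that arrays share. List examples are the 4 genes with the smallest p for tamoxifen in flox cells, of which 1 is not reported here; likeness is given for the 3 members with the smallest p there. Members and lists were chosen with earlier results of these data known.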

Additional observations from a re-analysis of the deposited data

How the results depend on the processing

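The alternatives were no replicate block, median centring, Agilent's processed signals, the deposited value table, Aquantile between arrays, no or a strict filter on dim probes, day 0 RNA as a random block, the mean of all probes, the day 3 channel alone, only the arrays compared, and leaving out 1 array at a time. Over 1670 single-gene values of members, 1525 kept direction and side of the threshold, 58 changed sign with no call in either setting (among them Bcl2l1 at day 3 in flox cells with tamoxifen, 0.27 with the mean of all probes), 61 lost the call, 24 gained it and 2 reversed, which are Bcl2l1 with the mean of all probes, at 0.32 in control cells with tamoxifen and 0.13 in flox cells without it. The cause was not tested, except that fewer arrays leave fewer degrees of freedom. With no replicate block, the experiment number is left out of the fit. At day 3 the count of members called was then 3 in place of 5 in control cells with tamoxifen. It was 3 in place of 5 in flox cells without and 2 in place of 6 with tamoxifen. The count was 0 in place of 1 for tamoxifen in flox cells and 0 in place of 1 for flox against control without tamoxifen. Agilent's processed signals and the deposited value table each gave 0 for tamoxifen in flox cells and 0 for flox against control without tamoxifen. The latter count was 2 with median centring, 0 with the compared arrays alone and 2 with the day 3 channel alone. The compared arrays alone gave 2 for tamoxifen in flox cells. With tamoxifen, flox against control gave 1 with the mean of all probes and 1 with the day 3 channel alone, which also gave 1 for the difference of the tamoxifen effects. With single arrays left out the counts ranged from 2 to 5, 1 to 6, 2 to 6 and 2 to 6 at day 3 in control cells without and with tamoxifen and flox cells without and with it, from 0 to 2 for tamoxifen in flox cells, from 0 to 1 and 0 to 2 for flox against control without and with tamoxifen, and were 0 for tamoxifen in control cells and for the difference. The compared arrays alone leave no residual degrees of freedom for day 3 against day 0, so they were not run there. The dimmer Bcl2l1 probe was not well above background in 1 day 0 channel, which limits its value there.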
